A study of Mus musculus with 124 samples.

Results

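The genes described here load peptides onto MHC class II molecules, the surface proteins that show fragments of internalised antigen to CD4+ T cells. The 10 genes were chosen by name from the known pathway, out of 53465 genes in the deposited table, and are Cd74, H2-Ab1, H2-Aa, H2-Eb1, H2-DMa, H2-DMb1, H2-DMb2, H2-Oa, H2-Ob and Ciita. Their RNA was measured in T cells, B cells and monocytes sorted by flow cytometry from mouse blood, and each cell type was compared with the others and across the treatments PBS, EtOH and CBM. The PBS and EtOH groups belong to a model of prenatal alcohol exposure in outbred CD1 mice, in which ethanol at 4.0 g/kg (a 25% solution in PBS) was injected intraperitoneally on embryonic days 16 and 17, and blood was collected from offspring between postnatal days 35 and 40. The labels also describe a model of maternal diabetes induced with streptozotocin, and blood of both models was collected at those ages, but they neither explain CBM nor tie it to a model or a strain. T cells came in 6 PBS, 9 EtOH and 12 CBM samples, B cells in 8, 8 and 13, and monocytes in 8, 8 and 13. PBS and EtOH samples were sequenced in batch 1 and CBM samples in batch 2, so CBM and batch cannot be told apart. The labels do not state that samples of a group came from separate animals, so a p-value speaks only of the spread among the samples sequenced.

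MHC class II molecules are pairs of an alpha and a beta chain. In mice H2-Aa and H2-Ab1 encode the H2-A pair and H2-Eb1 the beta chain of H2-E. Cd74, the invariant chain, fills the groove of new class II molecules and steers them to endosomes, where H2-DM (H2-DMa with H2-DMb1 or H2-DMb2) exchanges the last piece of Cd74 for antigen peptide and H2-DO (H2-Oa with H2-Ob) restrains H2-DM. Ciita is the coactivator that switches on this set of genes through factors bound to the X and Y boxes of their promoters. B cells, dendritic cells and macrophages present antigen this way, monocytes do so to a varying degree, and resting mouse T cells transcribe class II genes little.

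Of the 10 genes, 8 lie together on chromosome 17 between 34092340 and 34316674 (GRCm38, a span of 224.3 kb), in the order H2-Oa, H2-DMa, H2-DMb2, H2-DMb1, H2-Ob, H2-Ab1, H2-Aa and H2-Eb1. RefSeq promoter sequences (GRCm38.p6, from 250 bases before to 50 bases after the gene's start) were at hand for 7 of the 10 genes, 8 promoters in all since H2-DMa had more than 1. Windows of these promoters are printed because the class II genes share a control element there, a pair of boxes that recruits Ciita. The capitals mark AACNNATG, the core letters of the X box, and ATTGG, those of the Y box, in the orientation of the gene.
H2-Oa chr17:34092276-34092365 plus strand: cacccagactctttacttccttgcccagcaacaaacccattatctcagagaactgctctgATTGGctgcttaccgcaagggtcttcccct
H2-DMb2 chr17:34145099-34145188 plus strand: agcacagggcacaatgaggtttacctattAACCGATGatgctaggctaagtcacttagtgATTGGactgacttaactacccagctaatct
H2-DMb1 chr17:34153070-34153159 plus strand: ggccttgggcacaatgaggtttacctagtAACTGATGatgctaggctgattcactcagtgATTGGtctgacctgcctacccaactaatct
H2-Ob chr17:34238788-34238877 plus strand: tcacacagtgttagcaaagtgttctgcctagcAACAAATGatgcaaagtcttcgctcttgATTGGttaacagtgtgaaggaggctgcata
H2-Aa chr17:34287842-34287931 minus strand: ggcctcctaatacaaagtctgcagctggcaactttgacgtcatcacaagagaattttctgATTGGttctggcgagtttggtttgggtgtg
H2-Eb1 chr17:34305748-34305837 plus strand: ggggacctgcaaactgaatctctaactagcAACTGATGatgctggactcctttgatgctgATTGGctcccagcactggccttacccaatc

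The ATTGG letters began 43 bases before the RefSeq start in H2-Oa, 48 in H2-Aa, 57 in H2-Ob, 59 in H2-Eb1, 61 in H2-DMb1 and 90 in H2-DMb2. This start can differ from that in the annotation behind the span given above, where H2-DMb1 begins at 34153072. H2-DMb1, H2-DMb2, H2-Ob and H2-Eb1 had AACNNATG followed by ATTGG, the first letters of both motifs being 31, 31, 28 and 30 bases apart. H2-Aa and H2-Oa had ATTGG without those exact X box letters. With both strands searched, ATTGG stood in promoters of 7 of these genes and in 12289 of 32851 promoters of the table (37.4%). AACNNATG stood in promoters of 4 of them and in 2912 of all promoters (8.86%), and AACNNATG followed by ATTGG, with 20 to 40 bases from first letter to first letter, stood in the same 4 genes and in 53 promoters (0.161%). Both motifs differ in letters and do not overlap here. These matches describe letters in a window and not bound sites.

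Total counts ranged from 0.33 to 8.28 M per sample (M, 1000000 counts). Levels are given as CPM (counts of the gene per 1000000 counts of the sample), and a log2 difference comes from the fit of edgeR, which also corrects for composition (TMM), so it can depart from the ratio of CPM means. Each sorted cell type carried its own markers, with a summed median over 15 markers of 10909, 11465 and 9790 CPM of T cell genes in T cells (PBS, EtOH and CBM in this order), 17909, 20702 and 17890 CPM of B cell genes in B cells, and 26857, 29739 and 36368 CPM of monocyte genes in monocytes. The genes of 15 samples went against a label, 13 of them against the sex label and 2 against the cell type, and 14 of the 15 were PBS or EtOH samples. The library labelled as EtOH T cells JS29 had Cd3e, a chain of the T cell receptor complex, at 13.2 CPM and Lyz2, the lysozyme of myeloid cells, at 20609 CPM. The library labelled as PBS monocytes JS17 had Cd3e at 865 CPM and Lyz2 at 172 CPM. H2-DMb1 and H2-DMb2 share sequence (369 of the 1629 stretches of 50 bases in H2-DMb1, or 22.7%, also occur in H2-DMb2), so reads could be split between them and their counts are uncertain. Ciita lies on chromosome 16 (10480059 to 10528418, GRCm38) and Cd74 on chromosome 18 (60803848 to 60812652), and all 10 genes are annotated as protein coding. Strand was not stated, so reads of antisense genes cannot be told apart from those of these 10. In such bulk samples, fewer cells that transcribe a gene and less RNA of it per cell cannot be told apart.

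Class II genes were highest in B cells in each treatment. Cd74, the invariant chain, had a lowest, median and highest level of 24161, 31394 and 36651 CPM in PBS B cells, 20011, 23694 and 31512 CPM in EtOH B cells, and 22572, 25521 and 31022 CPM in CBM B cells. In monocytes the same values were 334 (JS17), 2886 and 5403 CPM in PBS, 2380, 3388 and 11516 CPM in EtOH, and 694, 3248 and 10688 CPM in CBM. In T cells they were 164, 345 and 5103 CPM in PBS, 114, 227 and 12957 CPM in EtOH, and 99.4, 331 and 635 CPM in CBM. Every B cell sample lay above every monocyte and T cell sample, while monocytes and T cells overlapped in PBS and EtOH through the PBS T cell sample JS1, the PBS monocyte sample JS17 and the EtOH T cell sample JS29. In CBM, where no sample went against its cell type, the lowest monocyte sample (CBM11, 694 CPM) was above the highest T cell sample (635 CPM). Among samples that fit their labels, the order of mean Cd74 was PBS, CBM and EtOH B cells, then EtOH, CBM and PBS monocytes, then PBS, CBM and EtOH T cells. Neighbours in that order overlapped except EtOH B cells (23655 CPM) and EtOH monocytes (5391 CPM).

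**Figure D1:**
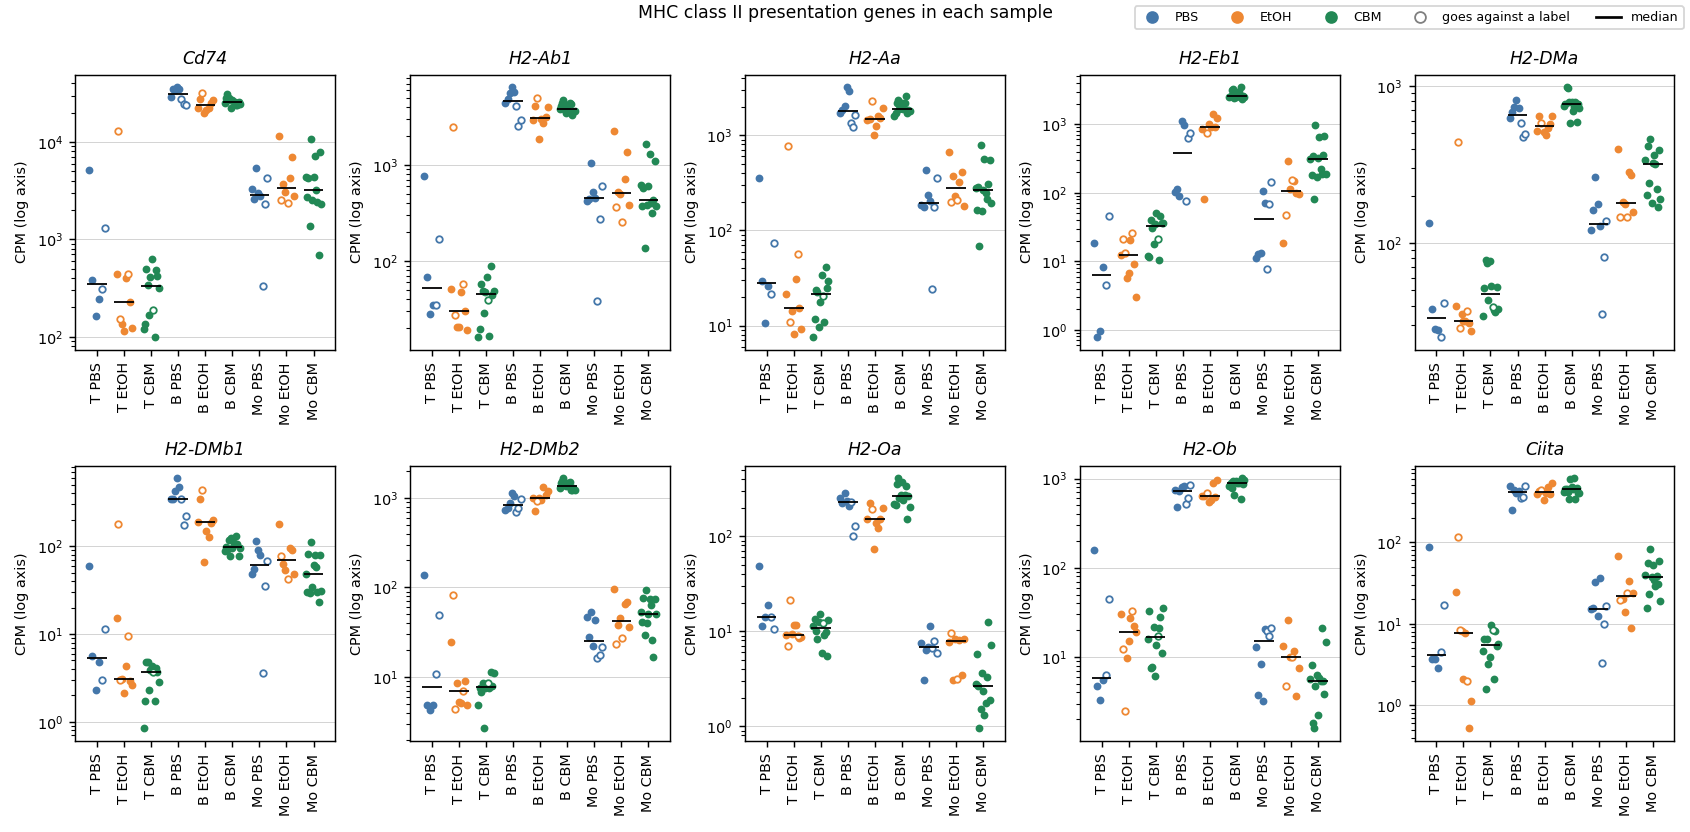
Level of each of the 10 genes (CPM, log axis) in every sample of the 9 groups, with 1 point per sample, a black line at the group median and open points for samples whose genes go against a label. B cells have the highest medians in every panel (Cd74 medians 23694 to 31394 CPM), while some of their samples overlap monocytes in H2-Ab1, H2-Eb1 and H2-DMb1. H2-Oa and H2-Ob are the panels in which monocytes lie near or below T cells.

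Both chains of the H2-A pair followed the same order of means among samples that fit their labels. The medians over all samples, given next, departed from it within B cells for H2-Aa and within monocytes for H2-Ab1. H2-Ab1, its beta chain, had medians of 4659, 3114 and 3800 CPM in PBS, EtOH and CBM B cells, 451, 508 and 429 CPM in monocytes, and 51.9, 30.1 and 45.9 CPM in T cells. H2-Aa, its alpha chain, had medians of 1782, 1486 and 1881 CPM in B cells, 193, 277 and 268 CPM in monocytes, and 28, 15.2 and 21.5 CPM in T cells. The proportion between them had similar medians in all cell types, at 43.3 to 49.9 CPM of H2-Aa per 100 CPM of H2-Ab1 in the 9 groups. Single samples ran from 30 (EtOH monocytes JS31) to 99.6 (EtOH T cells JS44). Among PBS and EtOH B cells it was 32.2 to 38.9 in JS2, JS5, JS8, JS16 and JS30 and 40.6 to 57.9 in the others. The proportion of Cd74 to H2-Ab1 also had similar group medians, at 6.53 to 7.19 CPM of Cd74 per CPM of H2-Ab1. The CBM monocyte sample CBM11 was apart from the others in this ratio, at 1.62 against 5.48 to 10.1 in the other 12 CBM monocyte samples.

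H2-Eb1, the beta chain of H2-E, had another pattern, with CBM B cells apart from PBS and EtOH B cells. H2-DMa, H2-DMb2, H2-Oa, H2-Ob and Ciita also had their highest mean in CBM B cells, but with overlap. Its lowest, median and highest levels in B cells were 76.8, 375 and 1132 CPM in PBS, 80.5, 906 and 1409 CPM in EtOH, and 2365, 2599 and 3496 CPM in CBM. In monocytes the medians were 41.3, 107 and 308 CPM, and in T cells 6.41, 12.2 and 33.1 CPM. CBM B cells did not overlap any other group.

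Levels of different genes were compared per kb of exon, taken as the union of all annotated exons of a gene and not as the length of 1 transcript. The order depends on this length, which was 5.38 kb for H2-Ob and 1.41 kb for H2-Oa. In PBS B cells Cd74 stood first with a mean of 18270 CPM per kb, followed by H2-Ab1 with 1799, H2-Aa with 524, H2-DMb2 with 503, H2-Eb1 with 248, H2-DMb1 with 217, H2-DMa with 186, H2-Oa with 147, H2-Ob with 128 and Ciita with 42.1 CPM per kb. The order began the same way in PBS monocytes, with Cd74 at 1784 CPM per kb, H2-Ab1 at 186, H2-Aa at 58.5, H2-DMa at 40.2 and H2-DMb1 at 36.7 CPM per kb. There both DO chains and Ciita came last, with 4.92 CPM per kb for H2-Oa, 2.47 for H2-Ob and 1.86 for Ciita. In CBM B cells H2-Eb1 had a mean of 1420 CPM per kb, next to H2-Ab1 with 1540, while H2-Aa had 522, H2-DMb2 794 and H2-DMb1 60.2 CPM per kb.

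RNA of both beta chains of the peptide editor H2-DM was present in B cells and in monocytes, in different proportion, within the limit on these counts given above. H2-DMa, its alpha chain, had medians of 658, 556 and 770 CPM in PBS, EtOH and CBM B cells, 133, 180 and 320 CPM in monocytes and 33.4, 31.8 and 47.8 CPM in T cells. H2-DMb2 had medians of 829, 999 and 1365 CPM in B cells but 25, 41.9 and 50.6 CPM in monocytes, and H2-DMb1 had 346, 188 and 97.6 CPM in B cells and 61.9, 69.9 and 48.5 CPM in monocytes. The ratio of H2-DMb2 to H2-DMb1 therefore had medians of 2.17, 5.83 and 14.1 in B cells and of 0.506, 0.658 and 0.947 in monocytes. Within PBS and EtOH B cells it varied by sample. It was 1.91 to 2.25 in JS2, JS5, JS8, JS10, JS13 and JS16 (PBS) and JS30 and JS33 (EtOH), and 4.43 in JS18 and JS21 (PBS). In the other EtOH samples it was 5.27 to 6.43 in JS24, JS39, JS51 and JS54, 10.5 in JS42 and 15.4 in JS36. Apart from JS17, whose ratio of 4.45 was in the range of lymphocyte samples, no PBS or EtOH monocyte sample was above 0.965, and no B cell sample was under 1.91. In the CBM groups the highest monocyte ratio was 1.66 and the lowest B cell ratio 9.45. These ratios are between uncorrected CPM and serve only to compare samples.

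The DM inhibitor H2-DO was mostly a B cell product. H2-Oa, its alpha chain, had medians of 227, 152 and 267 CPM in PBS, EtOH and CBM B cells, 14, 9.15 and 10.7 CPM in T cells, and 6.78, 7.88 and 2.64 CPM in monocytes. H2-Ob, its beta chain, had medians of 726, 634 and 899 CPM in B cells, 5.87, 18.8 and 16.6 CPM in T cells, and 15.1, 10.1 and 5.33 CPM in monocytes. Set against the target of the inhibitor, B cells had medians of 29 to 34.5 CPM of H2-Oa per 100 CPM of H2-DMa, T cells 25 to 42.7, and monocytes 5.19, 2.47 and 0.724 in PBS, EtOH and CBM. For H2-Ob the medians per 100 CPM of H2-DMa were 107 to 118 CPM in B cells, 22.2 to 67.8 in T cells, and 12.9, 4.43 and 1.65 in PBS, EtOH and CBM monocytes. In CBM the highest monocyte sample, at 7.36 for H2-Oa and 9.42 for H2-Ob, was below the lowest B cell sample, at 25.8 and 73.7. Samples of T cells spread widely in the H2-Ob ratio, from 8.04 to 93.2 in CBM.

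**Figure D2:**
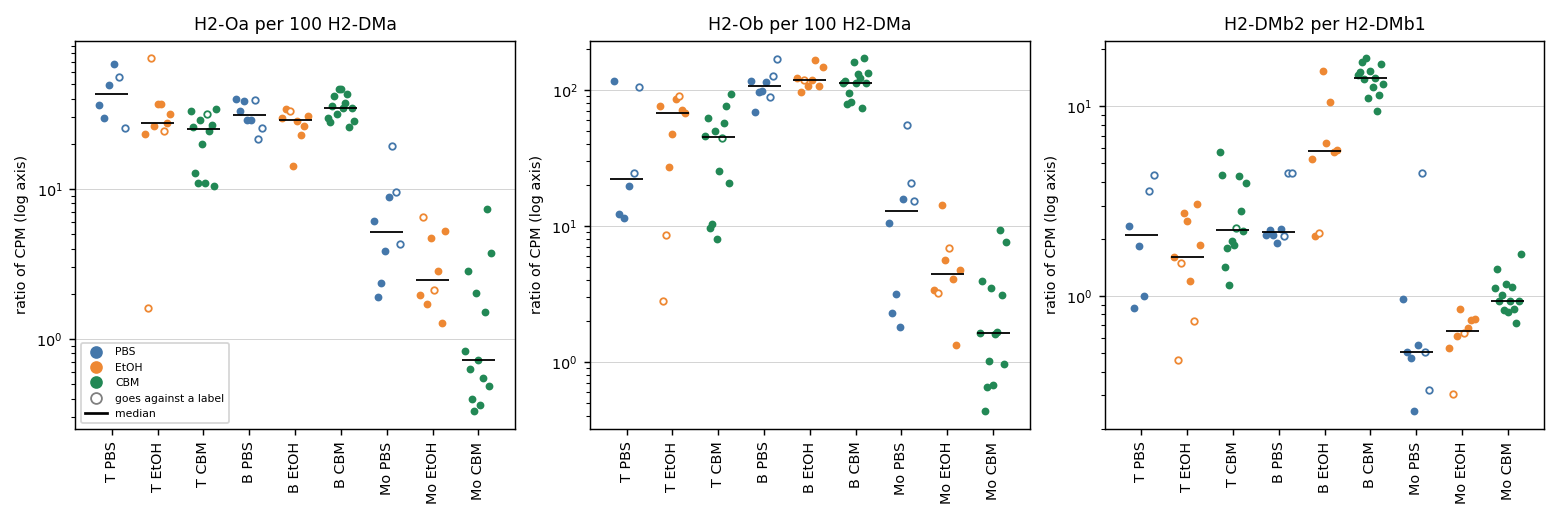
Ratios of H2-Oa and of H2-Ob per 100 CPM of H2-DMa, and of H2-DMb2 per CPM of H2-DMb1 (log axes), with 1 point per sample in the 9 groups. Monocytes are low in all 3 ratios (median H2-DMb2 to H2-DMb1 of 0.506 to 0.947, against 2.17 to 14.1 in B cells), and the PBS monocyte sample JS17 lies apart at 4.45.

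Ciita, the coactivator, had medians of 411, 418 and 445 CPM in PBS, EtOH and CBM B cells, 15.4, 21.7 and 37 CPM in monocytes, and 4.09, 7.75 and 5.48 CPM in T cells. Its B cell samples ranged from 250 to 609 CPM over all treatments. All other samples were below them, the highest being the library labelled EtOH T cells JS29 at 115 CPM and the PBS T cell sample JS1 at 86.9 CPM.

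The tests between cell types covered all 10 genes in each treatment and took the samples as unrelated. Against T cells, all 10 were higher in B cells in PBS, EtOH and CBM (adjusted p under 0.05 by edgeR), where 22.1%, 14.2% and 19.4% of all genes tested were higher. The log2 differences ran from 3.58 ± 0.33 (SE) for H2-Oa to 5.25 ± 0.99 for H2-Eb1 in PBS, from 2.69 ± 0.68 for H2-DMa to 6.04 ± 0.57 for H2-Eb1 in EtOH, and from 3.96 ± 0.16 for H2-DMa to 7.53 ± 0.18 for H2-DMb2 in CBM. The sizes in PBS and EtOH moved with single T cell samples, although all 10 genes passed without either of them. Without JS1 the differences in PBS ran from 3.97 ± 0.26 for H2-Oa to 6.28 ± 0.53 for H2-Ab1, where 43.4% of all genes passed. Without JS29, whose markers go against its label, those in EtOH ran from 4.01 ± 0.25 for H2-Oa to 7.30 ± 0.25 for H2-DMb2, with 4.25 ± 0.12 for H2-DMa and 6.71 ± 0.39 for Cd74, where 41.1% of all genes passed. The groups did not overlap for 10, 8 and 10 of the genes, against 21.6%, 9.57% and 11.4% of all genes tested. The median log2 difference of the 10 genes was 4.87, 3.93 and 6.42, and that of all genes -0.01, -0.05 and 0.02. In EtOH, DESeq2 called 3 of the genes and gave no adjusted p for the other 7.

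B cells were also higher than monocytes in all 10 genes in each treatment, where 24.6%, 29.3% and 26.4% of all genes were higher. The size of the difference varied between genes. H2-Ob exceeded monocytes by a log2 difference of 5.52 ± 0.35 in PBS, 5.63 ± 0.32 in EtOH and 6.77 ± 0.28 in CBM, H2-Oa by 4.68 ± 0.25, 4.21 ± 0.26 and 5.84 ± 0.33, and H2-DMb2 by 4.50 ± 0.33, 3.94 ± 0.25 and 4.29 ± 0.21. Cd74 exceeded them by 3.07 ± 0.42, 2.02 ± 0.32 and 2.25 ± 0.29, and H2-DMa by 1.90 ± 0.34, 0.95 ± 0.20 and 0.97 ± 0.16. H2-DMb1 exceeded them by 2.21 ± 0.48, 0.97 ± 0.37 and 0.50 ± 0.21 (adjusted p = 0.0412 in CBM). Its call was kept in all 16 fits that left out 1 sample in PBS, in 9 of 16 in EtOH and in 10 of 26 in CBM. In EtOH it was lost without samples against a label (0.64 ± 0.37, adjusted p = 0.155), where 9 genes passed. All 10 passed in PBS without JS17 (Cd74 2.87 ± 0.23, H2-DMa 1.72 ± 0.24 and H2-Ob 5.57 ± 0.36), where 59.8% of all genes did. Groups did not overlap for 9, 7 and 9 of the genes, against 13.5%, 34.3% and 15.9% of all genes tested. The median over the 10 genes was 3.02, 2.25 and 2.38, against 0.06, 0.05 and 0.09 for all genes.

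Monocytes and T cells differed gene by gene. In CBM, 8 of the 10 genes were higher in monocytes (24.4% of all genes were higher), from a log2 difference of 2.89 ± 0.19 for H2-DMa to 4.40 ± 0.30 for H2-DMb1. The 2 chains of H2-DO were lower in monocytes (32.8% of all genes were lower), H2-Oa with a log2 difference of -1.29 ± 0.34 (adjusted p = 0.00199) and H2-Ob of -1.31 ± 0.32 (adjusted p = 0.000854). The 8 higher genes were those whose groups did not overlap, against 18.9% of all genes. In PBS 4 genes passed where 43.9% of all genes did. H2-Eb1 (2.43 ± 0.94, adjusted p = 0.0482), H2-DMa (1.92 ± 0.52, adjusted p = 0.00883) and H2-DMb1 (2.69 ± 0.84, adjusted p = 0.0191) were higher and H2-Oa (-1.09 ± 0.31, adjusted p = 0.0113) was lower in monocytes. Without the T cell sample JS1 7 genes passed, where 40.5% of all genes did, and without the monocyte sample JS17 7 passed, where 55.7% did. In EtOH, H2-Eb1 (3.55 ± 0.53), H2-DMa (1.87 ± 0.64) and H2-DMb2 (2.02 ± 0.60) were higher in monocytes where 45.1% of all genes passed, and 8 genes passed without JS29, where 54.6% of all genes did. The median over the 10 genes was 1.86, 2.04 and 3.61 in PBS, EtOH and CBM, against -0.07, -0.03 and -0.20 for all genes.

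**Figure D3:**
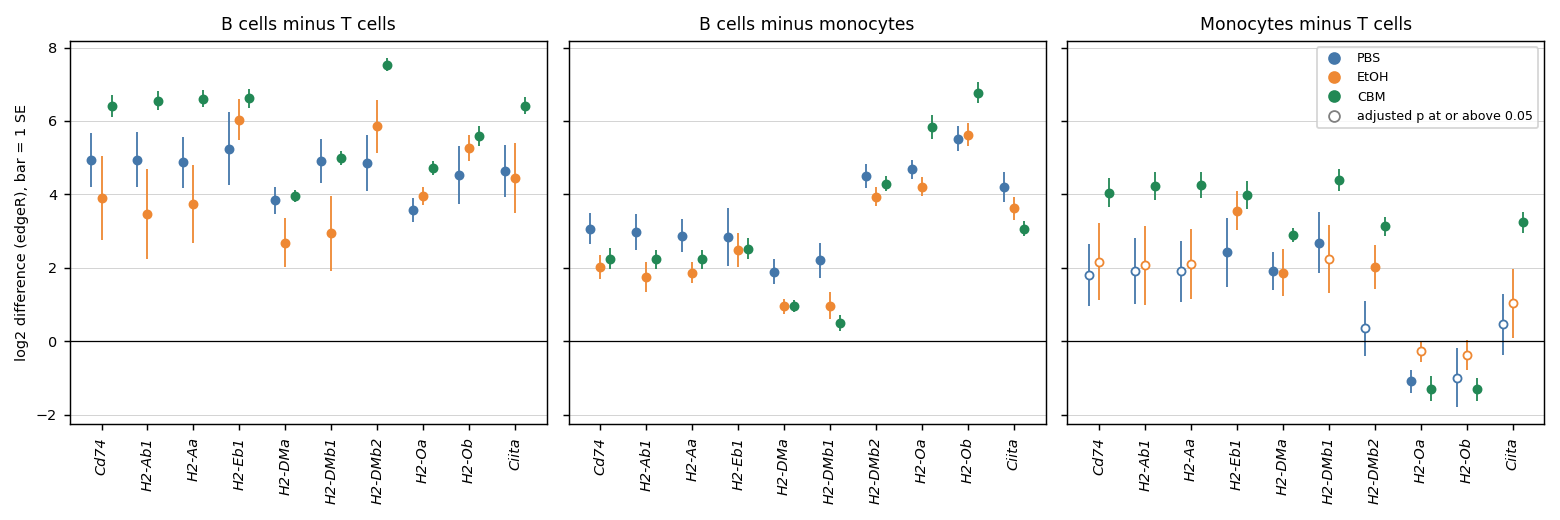
Log2 differences between cell types for each of the 10 genes in PBS, EtOH and CBM, with bars of 1 SE from the edgeR fit and open points where the adjusted p was 0.05 or more. B cells lie above T cells and monocytes for every gene, and the monocyte to T cell differences fall below 0 for H2-Oa and H2-Ob (-1.29 and -1.31 in CBM).

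Class II RNA in the T cell samples varied with a few samples. In the PBS T cell sample JS1, Cd74 was at 5103 CPM, H2-Ab1 at 771, H2-Ob at 157 and Ciita at 86.9 CPM, and in JS20, the next highest, Cd74 was at 1294 and H2-Ob at 44.3 CPM. Cd79a, which signals for the B cell receptor, reached 624 CPM in JS1 and 241 CPM in JS20, and stayed at 30.5 CPM or less in every other T cell sample. Ms4a1, the B cell surface protein CD20, was at 258 and 135 CPM in these samples. Cd3e was at 979 and 1047 CPM there, while PBS T cell samples ran from 937 to 1047 CPM. The library labelled EtOH T cells JS29 had Cd74 at 12957 CPM and H2-Ab1 at 2501 CPM, but H2-Oa at 7 and H2-Ob at 12.4 CPM, beside 7.52 CPM of Cd79a and 20609 CPM of Lyz2. Its ratios, 1.6 CPM of H2-Oa and 2.84 CPM of H2-Ob per 100 CPM of H2-DMa and 0.462 of H2-DMb2 to H2-DMb1, were in the range of the monocyte samples. In the CBM T cell samples Lyz2 ran from 103 to 1525 CPM, Cd79a from 3.26 to 10.7 CPM and Cd74 from 99.4 to 635 CPM. Cd209a and Siglech, both genes of dendritic cells, ran there from 1.14 to 49.7 CPM and from 3.43 to 136 CPM. CBM13, the lowest in Lyz2, had Cd74 at 319 CPM beside 136 CPM of Siglech. CBM8, the highest in Cd74, had Siglech at 14.6 CPM beside 1006 CPM of Lyz2. The summed B cell markers (15 genes) ran from 109 to 2910 CPM in PBS, 50.5 to 363 in EtOH and 59.3 to 152 CPM in CBM T cells, and the summed monocyte markers from 317 to 763, 348 to 28504 and 508 to 3344 CPM. The part of other cells in the class II RNA of the T cell samples was not tested further.

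**Figure D4:**
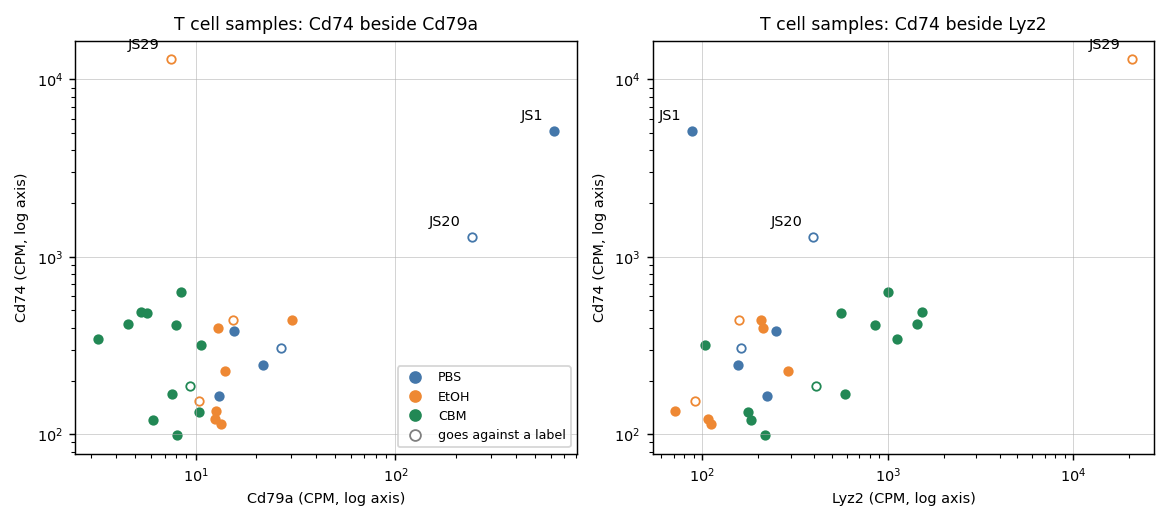
Cd74 against Cd79a and against Lyz2 (CPM, log axes) in the T cell samples, with 1 point per sample and JS1, JS20 and JS29 named. JS1 and JS20 are high in Cd74 with Cd79a (624 and 241 CPM), and JS29 is high in Cd74 with Lyz2 (20609 CPM).

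Prenatal ethanol was compared with PBS within each cell type. With all samples, none of the 10 genes passed in T cells, B cells or monocytes by edgeR, where 0% of all genes passed in each. At an unadjusted p under 0.05 there were 0, 2 and 0 genes, and DESeq2 and limma called 0 in each cell type, DESeq2 giving no adjusted p for 6 of the genes in T cells. The estimates in T cells were wide, from -1.07 ± 1.27 for H2-DMb2 to 0.67 ± 1.83 for H2-DMb1, and the value of Cd74 (-0.01 ± 2.09) moved with single samples. It was -2.08 ± 0.71 (adjusted p = 0.257) without JS29 and 1.41 ± 1.42 (adjusted p = 0.69) without JS1. The estimates in B cells were narrower, with -0.30 ± 0.14 (adjusted p = 0.641) for Cd74 and 0.10 ± 0.12 for Ciita. In monocytes the log2 differences ran from -0.25 ± 0.43 for H2-Ob to 1.16 ± 0.63 for H2-Eb1. A difference of the ethanol effect between cell types was called for none of the 10 genes in any of the 3 pairs by edgeR, where 0%, 0.00591% and 0% of all genes were called. All samples entered this fit as unrelated, since the labels do not state which PBS or EtOH samples of different cell types share an animal. Unadjusted, 0, 1 and 0 genes were under 0.05, the 1 being H2-Oa in T cells minus monocytes (-0.85 ± 0.38), and DESeq2 and limma called 0. Without the 2 samples whose markers go against the cell type, again none of the 10 was called, but the estimates of T cells minus monocytes were larger, with -2.89 ± 0.67 for Cd74, -3.12 ± 0.73 for H2-Ab1 and -3.04 ± 0.69 for H2-DMb2 (adjusted p = 0.199 each by edgeR). Unadjusted, 5 genes in T cells minus B cells, 8 in T cells minus monocytes and 0 in B cells minus monocytes were then under 0.05. Without all samples against a label, Cd74 was at -3.42 ± 0.82 (adjusted p = 0.0905) and H2-Ab1 at -3.72 ± 0.84 (adjusted p = 0.0778) in T cells minus monocytes, with 5, 8 and 1 genes under 0.05 unadjusted and none called.

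Leaving out the samples against a label, 3 genes fell in EtOH B cells, where 2.95% of all genes were lower and 4.62% passed in either direction. Cd74 was at 23655 ± 3076 CPM (SD, n = 7) in EtOH and 33823 ± 2942 CPM (n = 5) in PBS, a log2 difference of -0.56 ± 0.14 (adjusted p = 0.0362 by edgeR), with no overlap between the groups. H2-Ab1 was at 3142 ± 784 and 5452 ± 805 CPM, a log2 difference of -0.78 ± 0.20 (adjusted p = 0.037), also without overlap. H2-DMb1 was at 180 ± 87.1 and 436 ± 103 CPM, a log2 difference of -1.23 ± 0.33 (adjusted p = 0.0472), with overlapping groups. The groups of 2 of the genes thus did not overlap, against 2.32% of all genes tested. The PBS samples JS16, JS18 and JS21 and the EtOH sample JS33 were left out for their sex genes, and with them both genes overlapped. Cd74 was at 27467, 24653 and 24161 CPM in these PBS samples and at 31512 CPM in JS33. H2-Ab1 was at 4146, 2575 and 2975 CPM in these PBS samples and at 5016 CPM in JS33. H2-Aa (-0.56 ± 0.18, adjusted p = 0.0843), H2-Oa (-0.70 ± 0.23, adjusted p = 0.0863) and H2-Eb1 (2.30 ± 0.83, adjusted p = 0.11) did not pass, and H2-Ob, Ciita and H2-DMb2 had differences of 0.10 ± 0.16, 0.18 ± 0.16 and 0.20 ± 0.17. Each of the 3 calls was kept in 3 of the 12 fits that left out 1 sample. There were 0 calls without any one of JS5, JS8, JS10, JS13, JS24, JS39, JS42, JS51 or JS54, 4 without JS2, 3 without JS36 and 7 without JS30 (where 11.8% of all genes passed), and with all samples none passed. DESeq2 called 6 of the 10 genes, limma 7, and edgeR 0 once the marker scores of other cell types were added as terms. The kept samples also differed in H2-Eb1 and H2-Ea-ps (given below), unevenly between treatments. JS24, JS39, JS51 and JS54, with H2-Ea-ps at 95.1 to 156 CPM, were all EtOH. Of those low in H2-Eb1, EtOH JS30 had Cd74, H2-Ab1 and H2-DMb1 at 27872, 4167 and 347 CPM. PBS JS2, JS5 and JS8 had 28868 to 34807, 4426 to 5691 and 344 to 424 CPM. The part of this split in the 3 calls was not tested.

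In the same reduced comparison none of the 10 genes passed by edgeR in T cells, where 1.37% of all genes did, or in monocytes, where 0.104% did. In T cells 1 gene, H2-Oa, had an unadjusted p under 0.05 (-1.0 ± 0.38, adjusted p = 0.192). Without JS1, H2-Ob passed in T cells (1.98 ± 0.41, adjusted p = 0.0291), where 2.42% of all genes did. In monocytes H2-Eb1 had an unadjusted p under 0.05 (2.38 ± 0.92, adjusted p = 0.294). DESeq2 and limma called 0 in both. The median log2 difference of the 10 genes was -1.0 in T cells, -0.47 in B cells and 0.14 in monocytes, against -0.00, 0.01 and 0.02 for all genes.

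CBM was compared with PBS across batches, and 45.2%, 36.2% and 25.5% of all genes passed in T cells, B cells and monocytes. In B cells 5 of the 10 genes passed. H2-Eb1 rose from 481 ± 438 CPM in PBS (n = 8) to 2760 ± 371 CPM in CBM (n = 13), a log2 difference of 2.39 ± 0.44 (adjusted p = 0.000184), and H2-DMb2 from 879 ± 163 to 1388 ± 136 CPM, a difference of 0.46 ± 0.12 (adjusted p = 0.00422). H2-DMb1 fell from 364 ± 134 to 101 ± 16.6 CPM, a log2 difference of -2.0 ± 0.17 (adjusted p = 1.51e-09). The groups of these 3 genes did not overlap, against 5.81% of all genes. Cd74 (-0.43 ± 0.12, adjusted p = 0.00658) and H2-Ab1 (-0.40 ± 0.16, adjusted p = 0.0486) fell, with overlapping groups, and the call of H2-Ab1 was kept in 6 of 21 fits that left out 1 sample. H2-Aa (-0.16 ± 0.16), H2-Oa (0.20 ± 0.20), H2-Ob (0.14 ± 0.12), H2-DMa (0.07 ± 0.14) and Ciita (-0.03 ± 0.12) did not pass. Without samples against a label, where 42.9% of all genes passed, H2-DMb1 (-2.33 ± 0.14), H2-Eb1 (2.64 ± 0.52), Cd74 (-0.64 ± 0.12) and H2-Ab1 (-0.71 ± 0.14) passed in the same directions. H2-Aa also fell there (-0.44 ± 0.16, adjusted p = 0.0322), a call lost without JS10, and H2-DMb2 was at 0.35 ± 0.15 (adjusted p = 0.0623).

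In monocytes 4 of the 10 genes passed for CBM against PBS. H2-Eb1 rose by a log2 difference of 2.70 ± 0.59 (adjusted p = 0.00172), H2-DMa by 0.94 ± 0.30 (adjusted p = 0.0242) and Ciita by 1.09 ± 0.37 (adjusted p = 0.0361), and H2-Ob fell by 1.05 ± 0.37 (adjusted p = 0.0427). The groups of all 4 overlapped, where 3.17% of all genes had groups without overlap. The calls of H2-Ob and Ciita were kept in 6 and 13 of 21 fits that left out 1 sample. Without JS19, and likewise without JS22, only H2-Eb1 passed, and without samples against a label, where 19.9% of all genes passed, it was again the only one (3.15 ± 0.70, adjusted p = 0.00298), called in all 18 fits that left out 1 sample. Without JS17 H2-Ob did not pass (-1.05 ± 0.40, adjusted p = 0.0544). With marker scores of other cell types as terms and all samples, H2-Eb1 did not pass (1.92 ± 0.79, adjusted p = 0.0883), and the 1 gene that did was H2-DMb1 (-1.13 ± 0.39, adjusted p = 0.0446). With those terms and without samples against a label, both passed (2.53 ± 0.77, adjusted p = 0.0234, and -1.24 ± 0.35, adjusted p = 0.0141). In the fit of all samples without those terms, Cd74 (0.31 ± 0.43), H2-Ab1 (0.28 ± 0.44), H2-Aa (0.43 ± 0.42), H2-DMb1 (-0.36 ± 0.40), H2-DMb2 (0.64 ± 0.31) and H2-Oa (-0.86 ± 0.39) did not pass.

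In T cells 7 of the 10 genes were lower in CBM than in PBS, where 22.1% of all genes were lower. The log2 differences ran from -0.99 ± 0.31 for H2-Oa to -2.12 ± 0.55 for H2-DMb2, with -1.90 ± 0.60 for Cd74 (adjusted p = 0.0149), and no group pair was without overlap, against 9.2% of all genes. H2-Eb1 (0.95 ± 0.58), H2-DMa (-0.14 ± 0.33) and H2-Ob (-0.85 ± 0.63) did not pass. Without the PBS sample JS1 only H2-DMb1 passed (-0.94, adjusted p = 0.0455), where 45% of all genes did, and without JS20 5 genes passed. Once the marker scores of other cell types were added as terms, none of the 7 passed (Cd74 -0.74 ± 0.35, adjusted p = 0.099). The 2 genes that passed then were higher in CBM, H2-Eb1 by a log2 difference of 2.03 ± 0.54 (adjusted p = 0.00693) and H2-Ob by 2.39 ± 0.27 (adjusted p = 2.6e-06). Without samples against a label, 5 genes passed (41.9% of all genes), of which H2-Ab1 (-2.04 ± 0.68), H2-Aa (-1.88 ± 0.62), H2-DMb1 (-2.27 ± 0.66) and H2-Oa (-1.28 ± 0.35) were lower and H2-Eb1 (2.28 ± 0.65, adjusted p = 0.0123) was higher. Without JS1 as well, 2 passed, both higher, namely H2-Eb1 (3.05) and H2-Ob (1.72), where 38.3% of all genes passed. CBM comparisons in the 3 cell types and the ethanol comparisons share the PBS samples of each cell type.

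H2-Eb1 and its partner H2-Ea-ps varied widely between samples of the same group. H2-Ea-ps encodes the alpha chain of H2-E, which the reference strain carries as a pseudogene and other strains as a working copy. Among PBS and EtOH B cells, H2-Eb1 was at 76.8 to 112 CPM in JS2, JS5, JS8, JS16 and JS30 and at 638 to 1409 CPM in the other 11 samples, with no sample between. H2-Ea-ps was at 260 to 386 CPM in the 5 samples of low H2-Eb1. In the other 11 it was at 95.1 to 156 CPM in JS24, JS39, JS51 and JS54 and at 608 to 2458 CPM in JS10, JS13, JS18, JS21, JS33, JS36 and JS42. In the 13 CBM B cell samples H2-Eb1 was at 2365 to 3496 CPM and H2-Ea-ps at only 0.491 to 5.78 CPM. H2-Ea-ps was thus lower in CBM B cells in each sample, with a log2 difference of -8.62 ± 0.46 (adjusted p = 8.6e-13 by edgeR), and was also lower in CBM monocytes (-8.06 ± 0.70, adjusted p = 3.65e-08) and T cells (-4.45 ± 0.81, adjusted p = 0.000266). H2-Eb2, another beta chain gene, was at a median of 10.4, 14.4 and 23.6 CPM in PBS, EtOH and CBM B cells and rose in CBM against PBS (1.05 ± 0.22, adjusted p = 0.000695).

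A few monocyte samples were low in H2-Eb1 too. H2-Eb1 was at 11.3, 12.6 and 13.2 CPM in the PBS samples JS3, JS6 and JS9 and at 18.7 CPM in the EtOH sample JS31. The other PBS and EtOH monocyte samples had 47.7 to 289 CPM, apart from JS17, whose markers are those of T cells (7.63 CPM). The low monocyte samples adjoin in number the low B cell samples JS2, JS5, JS8 and JS30. JS1, JS4, JS7 and JS29, labelled as T cells, had 2.39, 1.14, 3.4 and 0.86 CPM of H2-Eb1 per 100 CPM of H2-Ab1. Other PBS and EtOH T cell samples had 12.7 to 49.1. The low B cell sample JS16 (1.85) adjoins JS15 (12.7) and JS17 (20). Per 100 CPM of H2-Ab1, H2-Eb1 had a lowest, median and highest value of 1.59, 9.53 and 24.8 CPM in PBS B cells, 1.93, 29.3 and 53.5 in EtOH B cells and 64.1, 70.5 and 81.1 in CBM B cells. In monocytes the values were 1.25, 17.7 and 25.2 in PBS, 0.834, 21.9 and 61.7 in EtOH and 44.6, 55.9 and 82.6 in CBM. CBM did not overlap PBS in either cell type in this ratio, while the EtOH monocyte samples JS37 (55.7) and JS43 (61.7) lay within the CBM range. H2-DMb1 in B cells was at 341 to 424 CPM in JS2, JS5, JS8 and JS16, at 347 CPM in JS30 and at 435 to 592 CPM in JS10, JS13 and JS33, against 65.2 to 222 CPM in the other 8 PBS and EtOH samples and 76.5 to 130 CPM in CBM. The genotype of single mice in this outbred stock is not in the labels, and its part in these values was not tested.

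**Figure D5:**
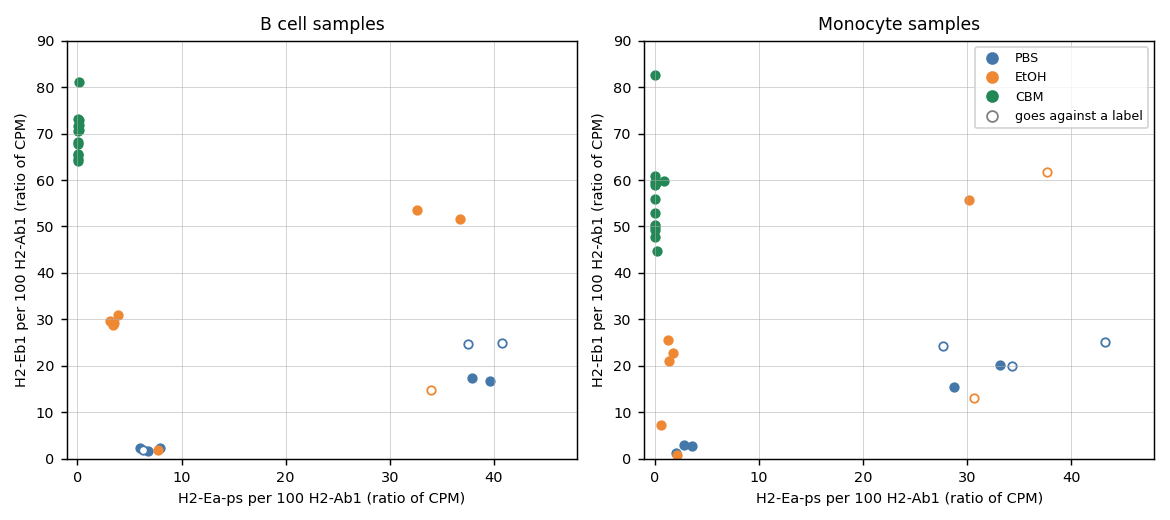
H2-Eb1 against H2-Ea-ps, each per 100 CPM of H2-Ab1 (linear axes), with 1 point per B cell or monocyte sample coloured by treatment. CBM samples have high H2-Eb1 (44.6 to 82.6 in monocytes, 64.1 to 81.1 in B cells) and low H2-Ea-ps, while PBS and EtOH samples spread widely, and some EtOH monocytes overlap CBM monocytes on either axis (JS43 at 61.7 in H2-Eb1, JS52 at 0.593 in H2-Ea-ps).

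Monocyte samples differed from each other by more than 10-fold in some class II genes within a treatment. In CBM, Cd74 was at 694 CPM in CBM11, 1380 CPM in CBM4 and 10688 CPM in CBM5, and H2-Ab1 at 429, 137 and 1662 CPM in the same samples. Cd79a in these was at 0.762, 3.48 and 4.26 CPM and Flt3, a growth factor receptor of dendritic cells, at 8.57, 2.21 and 2.34 CPM. Lyz2 was at 16951, 27367 and 33011 CPM. CBM11 was the lowest of the CBM monocytes in Cd74 and Lyz2 and the highest in H2-Oa (12.6 CPM). In EtOH, JS31 was highest in Cd74 (11516 CPM), H2-Ab1 (2238 CPM), H2-Aa (672 CPM), H2-DMb1 (180 CPM) and Ciita (68.7 CPM), beside 20.1 CPM of Cd79a and 67.6 CPM of Cd209a, a lectin of monocyte-derived dendritic cells. JS52, the next in Cd74 (6941 CPM), had the highest Cd209a of the group (392 CPM) and the lowest Ciita (8.8 CPM). The summed dendritic cell markers (9 genes) ran from 227 to 577 CPM in EtOH and from 63.6 to 368 CPM in CBM monocytes. This sum had medians of 3509 CPM in PBS T cells, 1635 CPM in PBS B cells and 338 CPM in PBS monocytes. It therefore does not measure dendritic cells alone.

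The wider pathway was described with 39 other genes (13 regulators, 9 processing enzymes and chaperones, 8 turnover and partner proteins, 4 costimulators, 2 receptors of class II and 3 further class II chains, of which H2-Ea was not analysed here). For ethanol against PBS with all samples none passed in any cell type by edgeR, and 2, 4 and 1 had an unadjusted p under 0.05 in T cells, B cells and monocytes. The lowest p belonged to Nfya, a subunit of the factor that binds the Y box, in T cells (1.02 ± 0.45, adjusted p = 0.532) and monocytes (0.79 ± 0.33, adjusted p = 1), and to the tetraspanin Cd9 in B cells (-0.77 ± 0.30, adjusted p = 0.63). Without samples against a label Prdm1, the repressor of Ciita in plasma cells, fell in B cells from 16.3 ± 4.49 to 5.85 ± 3.86 CPM (log2 difference -1.75 ± 0.35, adjusted p = 0.0215). For CBM against PBS, 5 of the 36 tested rose and 7 fell in T cells, 6 of 38 rose and 8 fell in B cells, and 4 of 36 rose and 10 fell in monocytes, where 45.2%, 36.2% and 25.5% of all genes passed. Cxcr4, a chemokine receptor that also works with Cd74 as a receptor of Mif, fell in all 3 (-2.74 ± 0.24, -1.77 ± 0.13 and -1.95 ± 0.39), and so did Rfxap, a subunit of the factor that binds the X box (-1.05 ± 0.26, -0.96 ± 0.22 and -1.25 ± 0.22). Irf4, a transcription factor of activated B cells, rose in B cells from 37.8 ± 11.8 to 84.4 ± 19.7 CPM (1.02 ± 0.18, adjusted p = 9.12e-05). The costimulator Cd80 fell in monocytes from 39.2 ± 28.6 to 8.61 ± 4.35 CPM (-2.40 ± 0.50, adjusted p = 0.00117).

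In PBS, 5 of the 9 processing genes were lower in B cells than in monocytes and 1 was higher. Ctsd and Ctsb, proteases of lysosomes, were lower by log2 differences of -3.62 ± 0.19 and -3.31 ± 0.28, at 52.1 ± 12.4 against 533 ± 131 CPM and 303 ± 77.4 against 2413 ± 762 CPM. Cd37, a tetraspanin of lymphocyte membranes, was higher in B cells (2.34 ± 0.15), and so was H2-Eb2 (4.47 ± 0.46). Of the 39 genes, 9 were higher and 14 lower in B cells than in monocytes in PBS, 11 and 17 in EtOH, and 9 and 13 in CBM, where 51.1%, 60.3% and 55.4% of all genes passed. Against T cells, B cells had 19 higher and 8 lower in PBS, 12 and 9 in EtOH, and 16 and 7 in CBM, where 44.4%, 32.1% and 42.7% of all genes passed. Among them were higher Ctsz, a lysosomal protease (2.73 ± 0.15), and lower Cd4, the coreceptor with which T cells bind class II (-6.27 ± 0.25, both in PBS). Monocytes against T cells had 18 higher and 3 lower in PBS, 18 and 3 in EtOH, and 19 and 8 in CBM, where 43.9%, 45.1% and 57.2% of all genes passed, and 8 of the 9 processing genes were higher in PBS. Ctss, the protease that trims Cd74, was at 1679 ± 668 CPM in PBS monocytes and 254 ± 38.2 CPM in PBS T cells (3.12 ± 0.44).

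Genes whose levels followed the mean log2(CPM + 1) of Cd74, H2-Ab1, H2-Aa and H2-Eb1 most closely were named within each cell type, over samples that fit their labels. These are descriptions over samples that share treatments and batches. In the 21 T cell samples, out of 9613 genes, they were Ifi30 (r = 0.90), Napsa (0.88), Fgd2 (0.87), Unc93b1 and Syk (0.85), and Ly86, Myo1e and Ctsh (0.82), and the sample JS1 is the highest of these in the class II genes. In the 25 B cell samples, out of 9401 genes, they were Snhg8 (0.82), Grap, Gm10443, Gm9843 and Alg1 (0.78), and Zfp36, Gm15427 and Usf1 (0.77). In the 24 monocyte samples, out of 8975 genes, they were Cmtm3 (0.85), Loxl3 (0.74), A630033H20Rik (0.73), Cpq (0.72), and Ip6k3, Leprot, Lair1 and Scpep1 (0.70). No gene was named in more than 1 of the 3 cell types. Across those B cell samples H2-Eb1 ran from 80.5 CPM (EtOH) to 3496 CPM (CBM). Cd74 there ran only from 20011 CPM (EtOH) to 36651 CPM (PBS), and H2-Ab1 from 1867 CPM (EtOH) to 6489 CPM (PBS). The B cell mean thus moved mostly with H2-Eb1, whose levels in CBM did not overlap those in PBS and EtOH. Whether the genes named in B cells follow Cd74, H2-Ab1 and H2-Aa without H2-Eb1 was not tested.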

How the data were processed

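The authors deposited raw gene counts without normalisation. Per the labels' protocols, RNA of sorted cells was amplified with a SMART-Seq low-input kit, and the tools in the submitters' processing notes are bcl2fastq, FastQC, HISAT2 2.1.0 for alignment and HTSeq 0.11.2 for counting, with the build GRCm38. The notes also name GRCh38, but 53274 of 53465 identifiers (99.6%) matched the mouse annotation GENCODE M21, which gave positions and exon lengths. 3 lines that name no gene were left out, and 26 symbols stored as dates were restored from their identifiers. Repeat libraries of a sample (39 pairs of the 124 libraries) differed by a chi-square per gene of 1.22 (median, genes with at least 20 counts) against 22.58 between samples of a group, and were summed to 85 samples. Samples held 0.33 to 6.23 M counts in batch 1 and 2.04 to 8.28 M in batch 2, and errors of low genes include counting error.

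Comparisons were fitted over all genes with edgeR 4.0.16 in R 4.3.3 (quasi-likelihood F test, TMM, filterByExpr with a minimum count of 10 and minimum total of 15, sex label as a term). A gene passed at an adjusted p (Benjamini-Hochberg) under 0.05, and all 10 genes passed the count filter in each comparison. SE values come from the fit. Alternatives were DESeq2 1.42.0, edgeR with the size factors of DESeq2, limma 3.58.1 (voom with sample weights), no filter, a minimum count of 30, no sex term, 1 library per sample, marker scores of other cell types as terms and leaving out samples. The procedure was tested on simulated data. Tables and plots were made with Python 3.11.15, pandas 2.3.3, numpy 2.4.6, scipy 1.17.1 and matplotlib 3.10.9.

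The members and lists were chosen with earlier results of these data known. All 10 genes were tested in every comparison. Of the 39 pathway genes, up to 4 with the lowest p per comparison that passed could be named, along with the further class II chains, and by likeness the 8 genes of highest Pearson r with at least 10 CPM on average. CBM samples carry numbers shared between cell types. The correlation of deviations of same-numbered samples was 0.11 to 0.44 (median 0.29) for B and T cells. It was -0.05 to 0.6 (median 0.34) for B cells and monocytes and 0.04 to 0.52 (median 0.34) for monocytes and T cells. The highest correlation was with the same number for 10 of 12, 10 of 13 and 8 of 12 numbers in these pairs. The fit without the block remained the main one, so the CBM tests between cell types do not use the shared numbers. PBS and EtOH samples carry no number shared between cell types. Whether neighbouring JS numbers came from the same animal was not tested.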

Additional observations from a re-analysis of the deposited data

Results flagged for a closer look

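Of 60 sets of 1 gene in 1 group of at most 10 samples, 21 held a sample far from the others by Dixon's criterion, which chance alone flags in about 1 of 20 sets. Most of them come from few samples, so the flags are not independent. The PBS T cell sample JS1 stood above the others in 9 genes, with Cd74 at 5103, H2-Ab1 at 771, H2-Aa at 351, H2-DMa at 135, H2-DMb1 at 59.5, H2-DMb2 at 139, H2-Oa at 48.6, H2-Ob at 157 and Ciita at 86.9 CPM, beside 624 CPM of the B cell gene Cd79a. The library labelled EtOH T cells JS29 stood above the others in 7, with Cd74 at 12957, H2-Ab1 at 2501, H2-Aa at 772, H2-DMa at 438, H2-DMb1 at 177, H2-DMb2 at 81.9 and Ciita at 115 CPM, beside 20609 CPM of the myeloid gene Lyz2. H2-Ob was at 12.4 CPM in JS29, within its group's range. The EtOH T cell sample JS32 was high in H2-Oa alone, at 21.2 CPM. Among EtOH monocytes JS31 was apart in H2-Aa (672 CPM), H2-DMb1 (180 CPM) and Ciita (68.7 CPM), and JS37 in H2-Ob (26 CPM), with 46.6 CPM of Cd79a, the highest of its group.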

How the results depend on the processing

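Counts of the 10 genes that passed are given under each alternative where they moved by over 1.5 times. For ethanol against PBS with all samples (0 in each cell type), no filter gave 2 in B cells and 1 in monocytes, and without samples against a label 3 in T cells (marker terms 1) and 1 in monocytes. For B cells without such samples (3), DESeq2 gave 6, limma 7, no filter 6, no sex term 6 and marker terms 0. For CBM against PBS, T cells (7) gave 3 with limma and 2 with marker terms, both higher and not among the 7, and without samples against a label (5) 8 with DESeq2, 8 with no filter, 8 with no sex term, 2 with limma and 3 with marker terms. CBM B cells (5) gave 2 with no filter, and 3 with no filter when samples against a label were left out. CBM monocytes (4) gave 1 with marker terms, H2-DMb1, not among the 4, and (1) 3 with limma and 2 with marker terms without such samples. For monocytes against T cells in PBS (4), DESeq2 gave 7, limma 9, no filter 8 and leaving out the 2 samples whose markers oppose their cell type, chosen after seeing the data, 7. In EtOH (3) the values were 5 with DESeq2, 8 with limma, 5 with no filter, 8 without samples against a label and 8 without those 2 samples. B cells against T cells in EtOH (10) gave 3 with DESeq2, which left 7 genes without an adjusted p. The cause of these changes was not tested.

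With marker terms the log2 differences of CBM against PBS reversed for some genes that passed in at least 1 of the fits compared. These were H2-DMb2 (0.30), H2-Ob (2.39, and 2.43 without samples against a label) and Ciita (0.53) in T cells, and H2-Ob (0.12) in monocytes. Genes that passed in neither fit also changed sign, among them Cd74 (-0.28), H2-Ab1 (-0.50) and H2-Aa (-0.36) in monocytes. H2-Ob in T cells without samples against a label also reversed without JS1, and ran from -1.19 to 1.72 when each sample was left out.

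Leaving out each sample in turn gave 0 to 0 calls for ethanol with all samples in T cells, B cells and monocytes, 0 to 1 in T cells, 0 to 7 in B cells and 0 to 0 in monocytes without samples against a label, and 0 to 0 for the differences between cell types. CBM gave 1 to 7 and 2 to 8 in T cells, 4 to 5 and 4 to 5 in B cells, and 1 to 5 and 1 to 2 in monocytes, with and without those samples. B cells gave 10 to 10, 8 to 10 and 10 to 10 against T cells and 10 to 10, 9 to 10 and 9 to 10 against monocytes in PBS, EtOH and CBM, and monocytes against T cells 3 to 7, 3 to 8 and 10 to 10.

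With the CBM number as a replicate block, all 10 genes passed in each of the 3 pairs of cell types and no call changed. Cd74 in B cells against T cells was 6.66, H2-DMb1 in B cells against monocytes 0.64 and H2-Ob in monocytes against T cells -1.13.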
